A study of Mus musculus with 20 samples.

Results

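The 9 genes described here make up the path by which a cell makes interferon beta and reads interferons: Ifnb1, the gene of interferon beta itself, the receptor chains Ifnar1, Ifnar2, Ifngr1 and Ifngr2, the receptor-bound kinases Jak1, Jak2 and Tyk2, and the transcription factor Stat2. They were taken by name, as the identifiers of the count table that the mouse annotation assigns to those symbols, and were 9 of the 55487 genes in the table. Of these, 8 passed the filter on low counts and were tested among 12799 genes. Ifnb1 did not pass it and is given by its counts.

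RNA was measured by sequencing poly(A) libraries from BV-2 cells, a wild-type (WT) mouse microglial cell line that was immortalised from the brain, in 4 groups of 5 cultures. Young cells were at low passage, and aged cells came from long-term cultivation of the same line. Each was left untreated or given bacterial lipopolysaccharide (LPS), a ligand of the receptor TLR4, at 100 ng/ml for 6 h. The comparisons ask how age changes these genes at rest, how LPS changes them at each age, and whether the LPS response depends on age. The labels number the cultures 1 to 5 as batches in every group. The aged cells were frozen after their long cultivation and thawed as aliquots, so the 5 aged cultures of each treatment may descend from 1 long-term culture, and p-values measure the spread between such cultures. A cell line kept in culture has neither the tissue nor the other brain cells that act on microglia.

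Interferon beta is secreted by cells that sense microbes. It binds a receptor made of IFNAR1, which carries TYK2, and IFNAR2, which carries JAK1. The kinases then phosphorylate STAT proteins, and STAT2 joins IRF9 in the factor ISGF3, which switches on antiviral genes. Interferon gamma binds IFNGR1 and IFNGR2, which carry JAK1 and JAK2, and acts mainly through sites in DNA known as GAS. In microglia, as in macrophages, LPS is known to start this loop through TLR4 and the adaptor TICAM1.

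The 20 libraries held 11371508 to 16829292 counts each, and mitochondrial genes took 0.517 to 1.30% of them. Levels are given as CPM, the count of a gene relative to the size of its library, after scaling by TMM factors that ran from 0.891 to 1.08. Of 15 microglial and macrophage markers, Csf1r, Cd68 and Trem2 were abundant in every group, whereas Sall1 was at 0 in every library, and P2ry12, Cx3cr1 and Fcrls did not exceed 31 counts in any. The summed level of that list was 3201 to 4593 CPM in young untreated and 2719 to 3946 CPM in aged untreated cultures, and with LPS 3725 to 5212 CPM in young and 3158 to 4494 CPM in aged ones. Of the 14 of these markers that were tested, 5 were called lower in aged cells at rest (median log2 fold change -0.41) and 6 lower and 1 higher with LPS (median -0.40), and their part in the age differences below was not tested. All 4 neuron and all 4 fibroblast markers had at most 3 counts in every library, the 4 astrocyte markers at most 14 and the 4 oligodendrocyte markers at most 23. Of 4 T cell markers, Cd3e and Cd3g were at 0 in every library and Cd3d did not exceed 3 counts. Cd2, with at most 57 counts, was higher in aged cells at rest (log2 0.92) and with LPS (1.06) and fell with LPS (-1.24 in young and -1.10 in aged cells). The summed T cell list stood at 1.12 to 1.79 CPM in young and 2.52 to 3.42 CPM in aged untreated cultures, and at 0.0987 to 0.827 CPM and 1.05 to 1.73 CPM with LPS. In a bulk library, fewer cells using a gene and less RNA of it per cell cannot be told apart.

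Of the receptor genes, 3 lie near each other on chromosome 16 of GRCm38, with Il10rb between the first and the second. All 3 are on the plus strand, in the order Ifnar2 (91372783 to 91405589), Ifnar1 (91485238 to 91507441) and Ifngr2 (91547072 to 91565623). Ifngr1 lies apart from them on chromosome 10 (19591949 to 19610229), as does Stat2 (128270559 to 128292849). Ifnb1, a gene of 1 exon of 750 bases, lies on chromosome 4 (88522025 to 88522774, minus strand), as does Jak1 (101152367 to 101265282). Jak2 lies on chromosome 19 (29251828 to 29313080) and Tyk2 on chromosome 9 (21104068 to 21131243). All 9 genes are protein-coding in the annotation.

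Promoters of all 9 genes were found in the RefSeq set for GRCm38.p6, as 300 bases from 250 before to 50 after the RefSeq start of the gene. Positions count from that start, which for some genes, Ifnar1 among them, is not the annotated start given above. The 250 bases before the start are shown for the 4 genes on which the LPS results turn: the ligand, which was counted in LPS-treated cells alone, the transcription factor, which LPS raised most of the 8 genes tested, and both interferon gamma receptor chains, which moved in opposite directions. Capitals mark a match on either strand to 1 of 3 short motifs.
Ifnb1: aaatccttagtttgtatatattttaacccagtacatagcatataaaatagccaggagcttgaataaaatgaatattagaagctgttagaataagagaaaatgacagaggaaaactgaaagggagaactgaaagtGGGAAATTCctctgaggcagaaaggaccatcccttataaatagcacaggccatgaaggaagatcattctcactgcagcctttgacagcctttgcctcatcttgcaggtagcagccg
Stat2: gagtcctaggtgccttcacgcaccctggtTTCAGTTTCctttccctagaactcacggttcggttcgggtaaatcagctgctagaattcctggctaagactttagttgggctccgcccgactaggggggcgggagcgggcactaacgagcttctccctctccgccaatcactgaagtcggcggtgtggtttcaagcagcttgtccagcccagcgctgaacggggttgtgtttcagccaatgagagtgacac
Ifngr2: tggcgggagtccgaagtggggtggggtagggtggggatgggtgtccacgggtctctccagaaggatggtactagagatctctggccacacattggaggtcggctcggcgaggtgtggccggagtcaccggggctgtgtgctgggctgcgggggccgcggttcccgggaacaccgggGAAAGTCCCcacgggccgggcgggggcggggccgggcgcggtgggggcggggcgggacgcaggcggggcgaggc
Ifngr1: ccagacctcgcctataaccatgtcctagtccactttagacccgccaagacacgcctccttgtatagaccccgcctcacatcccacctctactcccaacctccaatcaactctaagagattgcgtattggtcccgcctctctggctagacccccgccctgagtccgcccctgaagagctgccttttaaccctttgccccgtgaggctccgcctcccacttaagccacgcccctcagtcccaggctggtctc
These windows are chr4:88522795-88523044 (minus strand), chr10:128270248-128270497, chr16:91546809-91547058 and chr10:19591699-19591948 (all plus strand). The motifs searched in the 300 bases were the core of the interferon-stimulated response element (ISRE), GAAANNGAA, the GAS, TTCNNNGAA, and a core of NF-kappaB sites, GGGANNTTC, where N is any base. The Ifnb1 promoter held the NF-kappaB core as GGGAAATTC from position -116. The Stat2 promoter held the ISRE core, read on the other strand as GAAACTGAA, at -221, and the Ifngr2 promoter held the NF-kappaB core, on the other strand as GGGACTTTC, at -74. A GAS match stood at -214 before Ifnar2 (TTCCTGGAA) and at -5 across the RefSeq start of Ifnar1 (TTCACGGAA). None of the 3 was found in the windows of Ifngr1, Jak1, Jak2 and Tyk2. Of 32851 mouse promoters of this length, 8.56% held the ISRE core, 8.3% the GAS and 3.94% the NF-kappaB core, so the matches describe letters in these windows and nothing more.

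At rest, aged cells held less RNA of both interferon gamma receptor chains, of 1 chain of the type I receptor and of Tyk2. Of the 8 genes tested, 4 were called lower and 0 higher in aged than in young untreated cells (edgeR's quasi-likelihood test, Benjamini-Hochberg adjusted p below 0.05), against 7.81% of all genes called lower and 3.71% called higher. The 8 genes had a median log2 fold change of -0.24, and all genes tested one of -0.01. The differences were small, from -0.25 to -0.36 on the log2 scale for the 4 genes called.

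LPS raised most of the pathway in young cells. Of the 8 genes, 7 rose and 1, Ifngr1, fell, where 31.2% of all genes were called higher and 33.5% lower. Their median log2 fold change was 0.71, and that of all genes was -0.01. In aged cells 6 rose, 1 fell and Ifnar2 was not called, against 27.5% of all genes called higher and 26.9% lower, with medians of 0.56 for the 8 genes and 0.00051 for all genes. In either direction, 64.6% of all genes tested were called in young and 54.4% in aged cells. A call with LPS was thus common among all genes, and the sizes of the changes are given gene by gene.

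With LPS on both sides, 7 of the 8 genes were lower in aged than in young cells and 0 were higher, where 15.0% of all genes were called lower and 14.0% higher. The median was -0.39 for the 8 genes and 0.01 for all genes. The LPS response itself differed with age for 2 of the 8, Jak2 and Stat2, both smaller in aged cells, where 6.39% of all genes were called, 2.27% lower and 4.12% higher. Here lower means a smaller rise or a larger fall with LPS in aged cells, and higher means the reverse. Comparisons that share a group of cultures are not independent of each other.

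**Figure D1:**
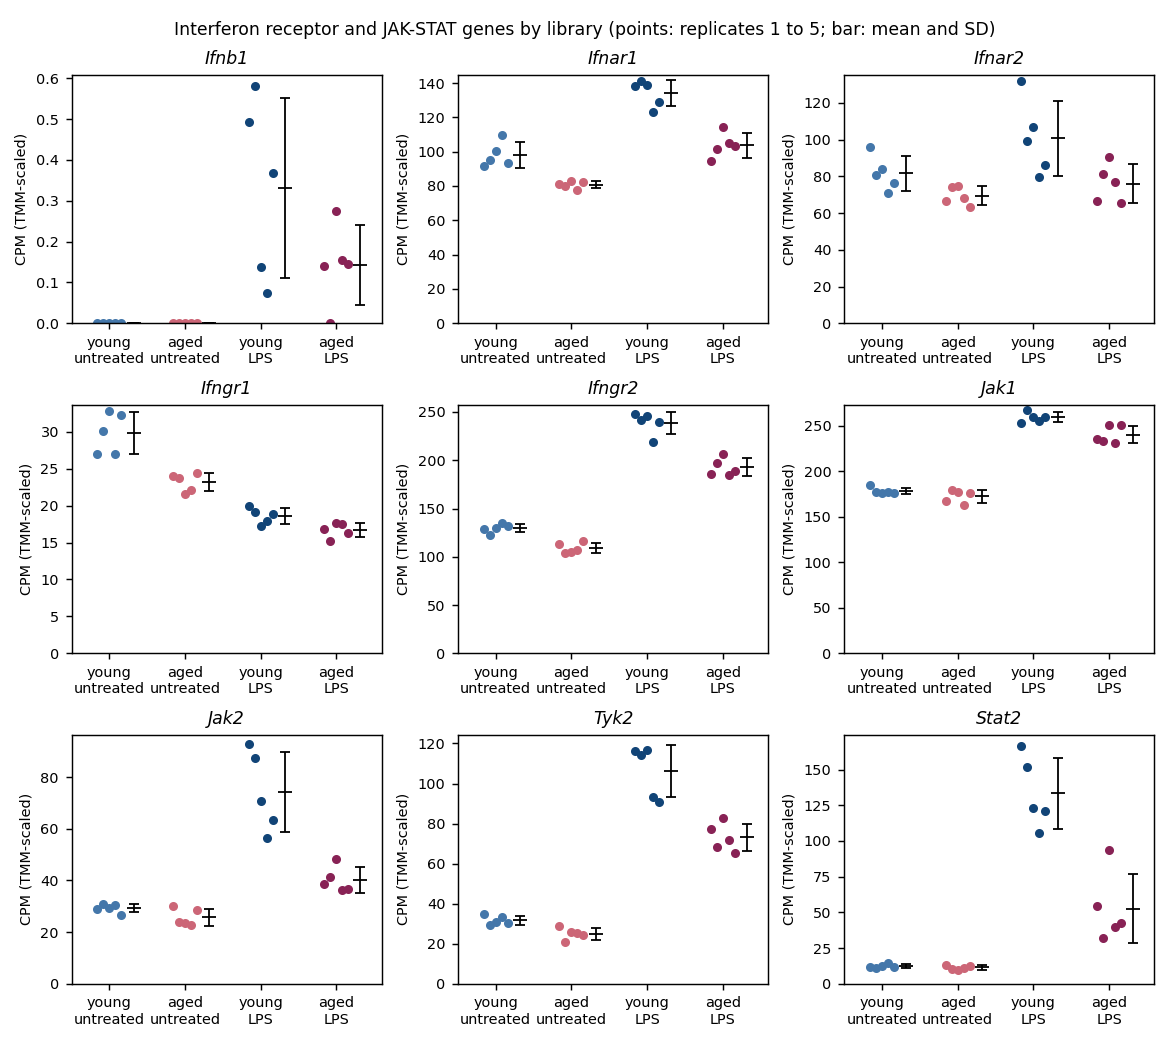
Level of each of the 9 genes in each of the 20 libraries, in TMM-scaled CPM on a linear axis from 0, with 1 panel per gene and replicates 1 to 5 from left to right within each group. The bar beside each group is the mean and SD (n = 5). Ifngr1 is the gene whose LPS-treated cultures lie below the untreated ones, and Stat2 in aged LPS-treated culture 3 (93.6 CPM) lies above the other aged cultures.

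Ifnb1 was not seen at rest. All 10 untreated libraries held 0 counts, and 3 counts, the limit that 0 allows, would be 0.165 to 0.296 CPM in a single library of the series. Young LPS-treated cultures 1 to 5 held 5, 7, 2, 1 and 5 counts, and aged LPS-treated cultures held 2, 0, 4, 2 and 2. Every young and 4 of 5 aged LPS-treated cultures thus had at least 1 count, and both ages overlapped.

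Pooled over its 5 libraries, Ifnb1 reached 0.314 CPM in young LPS-treated cells (95% Poisson interval 0.192 to 0.485, counting error only) and 0.148 CPM in aged ones (0.0709 to 0.272). These pooled levels were 8.05 times a floor of 3 counts over the untreated group in young and 4.00 times that floor in aged cells. They carry the counting error above, so these folds are no lower bounds. Both intervals lay above the floors, which were 0.0390 CPM in young and 0.0370 CPM in aged untreated cells. The aged level with LPS was 0.471 of the young level, with an interval of 0.197 to 1.05 that includes no difference. With no filter on low counts, edgeR gave Ifnb1 an adjusted p of 0.000117 for LPS in young cells, 0.00581 for LPS in aged cells and 0.377 for age with LPS. The other 20 interferon ligand genes looked for, among them the alpha interferons, Ifng and the lambda interferons, were at 0 in every library.

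Ifnar1, the chain of the type I receptor that carries TYK2, was slightly lower in aged cells at both treatments and rose with LPS. Young untreated cultures 1 to 5 held 91.4, 95.2, 100.2, 109.9 and 93.5 CPM, and aged untreated cultures 81.1, 80.1, 82.8, 77.7 and 82.4. With LPS, the 5 young cultures held 138, 141, 139, 123 and 129 CPM and aged cultures 94.3, 102, 115, 105 and 103. Every aged culture lay below every young one at the same treatment, and every LPS-treated culture lay above every untreated one of its age. The log2 fold change of age was -0.28 ± 0.06 (SE) untreated (adjusted p = 0.00243) and -0.37 ± 0.06 with LPS (adjusted p = 3.15e-05). That of LPS was 0.45 ± 0.06 in young (adjusted p = 2.58e-07) and 0.36 ± 0.06 in aged cells (adjusted p = 1.11e-05), and the difference between both responses was -0.09 ± 0.08 (adjusted p = 0.597).

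Ifnar2, the chain that carries JAK1, varied more between cultures. It stood at 96.3, 81.0, 84.0, 70.9 and 76.5 CPM in young untreated cultures 1 to 5 and at 66.5, 74.5, 74.9, 68.0 and 63.5 in aged untreated cultures. With LPS it stood at 132, 99.1, 107, 79.8 and 86.3 CPM in young and at 66.5, 81.2, 90.4, 76.7 and 65.5 in aged cultures. The groups overlapped in all 4 comparisons, and young culture 1 was the highest at both treatments. LPS raised it in young cells by 0.30 ± 0.11 on the log2 scale (adjusted p = 0.0231), and it was lower in aged than young cells with LPS (log2 -0.40 ± 0.11, adjusted p = 0.00942). The call in young cells was lost without replicate 2 (adjusted p = 0.0698) or replicate 3 (0.0648) and with scaling by library size alone (0.533), and the age call was lost without replicate 1 (0.0764). Aged cells gave 0.13 ± 0.11 for LPS (adjusted p = 0.348), and untreated cells -0.23 ± 0.11 for age (adjusted p = 0.193). Within batches, the aged culture was below the young one in 5 of 5 at rest (log2 -0.53 to -0.06) and in 5 of 5 with LPS (-0.99 to -0.06). Its exons share 315 bases, 9.46% of their length, with Gm21970 on the same strand, a gene model that reaches into neighbouring Il10rb, so its counts may be incomplete.

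Ifngr1, the ligand-binding chain of the interferon gamma receptor, was the gene that LPS lowered. Young untreated cultures held 26.9, 30.1, 32.7, 26.9 and 32.3 CPM and aged untreated cultures 24.0, 23.7, 21.6, 22.1 and 24.3. With LPS, young cultures held 19.9, 19.1, 17.3, 17.9 and 18.8 CPM and aged cultures 16.8, 15.2, 17.6, 17.5 and 16.3. Untreated and LPS-treated cultures did not overlap at either age, and the ages did not overlap at rest but did with LPS. LPS changed it by -0.68 ± 0.07 in young (adjusted p = 1.12e-08) and by -0.47 ± 0.07 in aged cells (adjusted p = 5.69e-06) on the log2 scale. Age changed it by -0.36 ± 0.07 at rest (adjusted p = 0.0011), the largest age difference of the 8 genes there. With LPS the difference was -0.15 ± 0.07 (adjusted p = 0.12), and that between both LPS responses was 0.21 ± 0.10 (adjusted p = 0.236).

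Ifngr2, the signalling chain of the same receptor, moved the other way. It stood at 129, 123, 130.1, 135 and 132 CPM in young and at 113, 104, 105, 108 and 116 CPM in aged untreated cultures. With LPS it stood at 248, 242, 245, 219 and 240 CPM in young and at 186, 197, 207, 185 and 189 CPM in aged cultures. No pair of groups compared overlapped. LPS raised it 1.84-fold in young (log2 0.88 ± 0.05, adjusted p = 1.27e-13) and 1.77-fold in aged cells (0.82 ± 0.05, adjusted p = 8.6e-13). It was lower in aged cells at rest (log2 -0.25 ± 0.05, adjusted p = 0.00115) and with LPS (-0.31 ± 0.05, adjusted p = 2.35e-05), and the difference between the LPS responses was -0.06 ± 0.06 (adjusted p = 0.697).

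As background, both chains are needed for a working receptor, so their ratio was taken within each library, per base of exon (the union of all exons of a gene). The level of Ifngr2 over that of Ifngr1 was 3.31 ± 0.35 (SD, n = 5) in young and 3.56 ± 0.14 in aged untreated cultures. It was 9.71 ± 0.59 in young and 8.75 ± 0.70 in aged cultures with LPS. The highest untreated library stood at 3.78 and the lowest LPS-treated one at 7.98, so treatment separated every library, whereas the ages overlapped. For the type I receptor, Ifnar2 over Ifnar1 was 1.5 ± 0.26, 1.53 ± 0.12, 1.34 ± 0.22 and 1.31 ± 0.12 in the same order of groups, and all groups overlapped. Within batches, this ratio was lower with LPS in 5 of 5 aged pairs of cultures (log2 -0.28 to -0.20) and in 4 of 5 young pairs (-0.29 to 0.0041), while between ages it was lower in 2 of 5 pairs at each treatment. These ratios are a description with no test, and their absolute size depends on which transcript length is used.

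**Figure D2:**
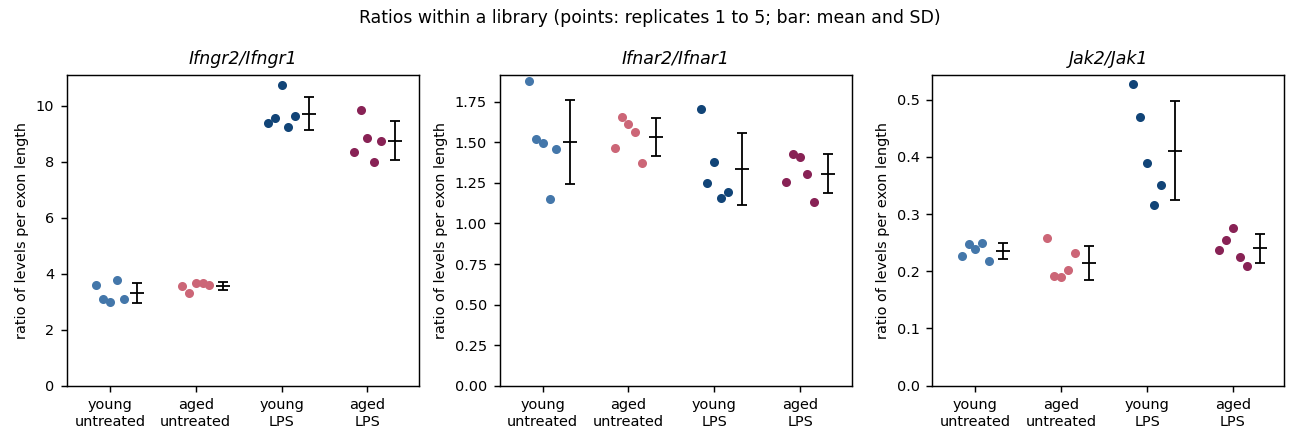
Ratio of levels per exon length within each library, on linear axes from 0, for Ifngr2 over Ifngr1, Ifnar2 over Ifnar1 and Jak2 over Jak1. Points are replicates 1 to 5 from left to right in each group and the bar is the mean and SD (n = 5). Ifngr2/Ifngr1 lies between 3.00 and 3.78 untreated and between 7.98 and 10.7 with LPS, while Jak2/Jak1 is highest in young LPS-treated cultures.

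Jak1, the kinase that both receptors use, had the smallest fold change of age among the 8 genes at either treatment. It stood at 185, 178, 177, 177 and 176 CPM in young and at 167, 179.6, 177, 163 and 176 CPM in aged untreated cultures. With LPS it stood at 253, 268, 260.4, 256 and 259.9 CPM in young and at 235, 234, 251, 232 and 251 CPM in aged cultures. The ages overlapped at rest, and with LPS they were separated by the narrow gap from 251 to 253 CPM. LPS raised it by 0.54 ± 0.04 in young (adjusted p = 2.87e-11) and by 0.48 ± 0.04 in aged cells (adjusted p = 4.18e-10) on the log2 scale. With LPS it was called lower in aged cells (log2 -0.11 ± 0.04, adjusted p = 0.0336). That call was lost when any of replicates 1, 2, 4 and 5 was left out (adjusted p up to 0.213), with no filter on low counts (0.269), with only both groups in the fit (0.105) and with scaling by library size alone (0.562). The difference at rest was -0.05 ± 0.04 (adjusted p = 0.46).

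Jak2, the kinase carried by IFNGR2, rose with LPS in both ages and less so in aged cells. Young untreated cultures held 29.1, 30.8, 29.5, 30.6 and 26.7 CPM and aged untreated cultures 30.0, 23.9, 23.4, 22.9 and 28.5. With LPS, young cultures 1 to 5 held 92.9, 87.6, 70.7, 56.3 and 63.6 CPM and aged cultures 38.7, 41.4, 48.2, 36.1 and 36.6. The ages overlapped at rest and did not with LPS, where the lowest young culture stood at 56.3 and the highest aged one at 48.2 CPM. LPS raised it 2.52-fold in young (log2 1.34 ± 0.12, adjusted p = 8.98e-10) and 1.57-fold in aged cells (0.65 ± 0.12, adjusted p = 7.53e-05). With LPS, aged cells were lower (log2 -0.88 ± 0.11, adjusted p = 5.82e-06), and the LPS responses differed by -0.69 ± 0.17 (adjusted p = 0.0132). Within batches, that difference was below 0 in 5 of 5, from -1.31 in batch 1 to -0.22 in batch 3. Its call was lost without replicate 1 (adjusted p = 0.0914), 2 (0.0977) or 5 (0.072).

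Tyk2, the kinase carried by IFNAR1, showed the second largest LPS response of the 8 genes. It stood at 34.7, 29.4, 30.6, 33.2 and 30.5 CPM in young and at 29.0, 20.7, 25.7, 25.3 and 24.4 CPM in aged untreated cultures. With LPS it stood at 116, 114, 117, 93.1 and 90.6 CPM in young and at 77.2, 68.5, 82.7, 71.6 and 65.4 CPM in aged cultures. Every aged culture lay below every young one at the same treatment. LPS raised it 3.35-fold in young (log2 1.74 ± 0.09, adjusted p = 9.58e-14) and 2.92-fold in aged cells (1.55 ± 0.09, adjusted p = 1.85e-12), and the difference between the responses was -0.20 ± 0.13 (adjusted p = 0.432). It was lower in aged cells with LPS (log2 -0.54 ± 0.09, adjusted p = 5.48e-05) and at rest (-0.34 ± 0.09, adjusted p = 0.0195). The call at rest was lost without replicate 2 (adjusted p = 0.0928), replicate 4 (0.0733) or young untreated culture 1 alone (0.0545). Its exons share 554 bases with the antisense gene 1700084C06Rik, which had at most 8 counts in any library. The strand setting of the counting is not given in the sources used here.

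Stat2, a subunit of ISGF3, rose most. Untreated cultures held 11.7, 11.2, 12.1, 14.4 and 12.0 CPM when young and 13.4, 10.5, 9.58, 11.0 and 12.7 CPM when aged, with no difference called (log2 -0.11 ± 0.23, adjusted p = 0.825). With LPS, young cultures 1 to 5 held 166, 152, 123, 105 and 121 CPM and aged cultures 54.4, 32.2, 93.6, 40.0 and 42.8. The ages overlapped at rest and did not with LPS, although aged culture 3 came near the lowest young culture. LPS raised Stat2 10.8-fold in young (log2 3.44 ± 0.22, adjusted p = 3.23e-12) and 4.63-fold in aged cells (2.21 ± 0.22, adjusted p = 1.05e-08).

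With LPS, aged cells held 0.396 of the young level of Stat2 (log2 -1.34 ± 0.19, adjusted p = 1.68e-05). The LPS responses differed by -1.23 ± 0.30 on the log2 scale (adjusted p = 0.0155). The difference was below 0 in 5 of 5 batches, with -1.80, -2.13, -1.0 and -1.57 in batches 1, 2, 4 and 5 and -0.05 in batch 3. Without aged LPS-treated culture 3 it was -1.54 (adjusted p = 9.82e-05), and without replicate 3 in all groups -1.63 (adjusted p = 0.00109). The call was lost without replicate 1 (adjusted p = 0.0947), 2 (0.127) or 5 (0.0946).

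**Figure D3:**
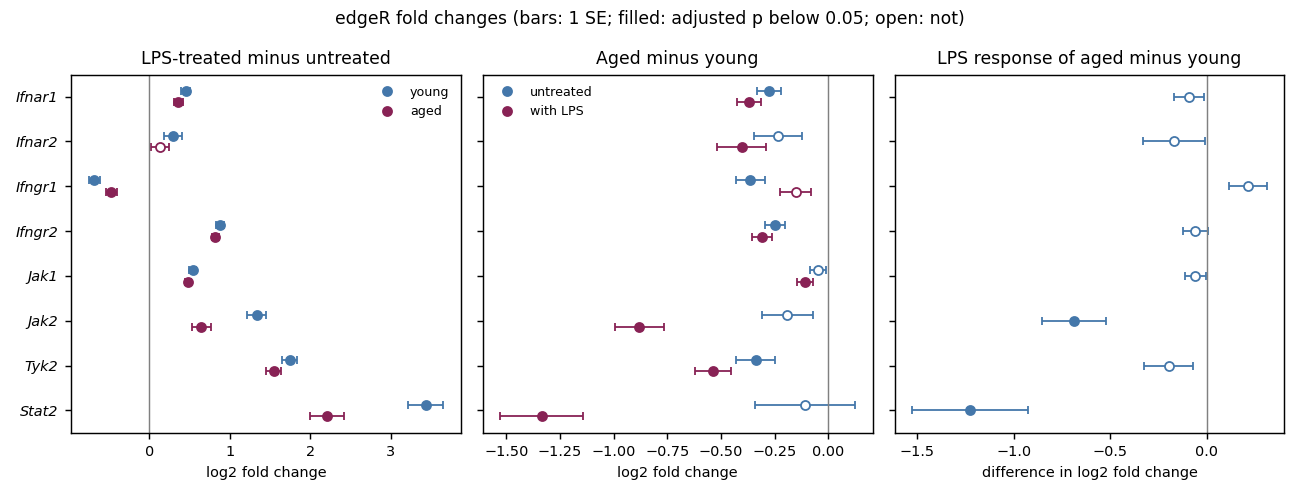
edgeR log2 fold changes of the 8 genes tested, with 1 SE: LPS-treated over untreated cells at each age (left), aged over young cells at each treatment (middle), and the LPS response of aged minus that of young cells (right). Filled points have an adjusted p below 0.05. Stat2, Tyk2 and Jak2 rise most, Ifngr1 falls at both ages, and Jak2 (-0.69) and Stat2 (-1.23) are the filled points on the right.

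Compared per base of exon, as fragments per kilobase of exon and scaled library size (FPKM), the order of mean levels in young untreated cells was Ifngr2 (34.4), Jak1 (24.7), Ifnar2 (24.6), Ifnar1 (16.5), Ifngr1 (10.5), Jak2 (5.83), Tyk2 (4.62) and Stat2 (2.08), with Ifnb1 at 0. Among neighbours in this order, Jak1 and Ifnar2 overlapped. Aged untreated cells kept the same order with no overlap of neighbours, from 29.0 FPKM for Ifngr2 to 1.93 for Stat2.

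With LPS Stat2, Tyk2 and Jak2 passed Ifngr1. In young cells the order was Ifngr2 (63.4 FPKM), Jak1 (35.9), Ifnar2 (30.3), Ifnar1 (22.6), Stat2 (22.5), Tyk2 (15.5), Jak2 (14.8), Ifngr1 (6.53) and Ifnb1 (0.441). Jak1 and Ifnar2, Ifnar1 and Stat2, and Tyk2 and Jak2 overlapped there. In aged cells Stat2 stood at 8.88 FPKM, below Tyk2 at 10.6 and above Jak2 at 7.99, and overlapped with both. With the longest transcript as the length, Jak1 came before Ifngr2 and Tyk2 before Jak2 at rest, and Ifnar1 came before Ifnar2 with LPS. The position of Stat2 last among the detected genes at rest, and of Ifngr1 last among them with LPS, was the same under both lengths, although in aged LPS-treated cells Jak2 (7.99 FPKM) and Ifngr1 (7.90) nearly tied with the longest transcript and overlapped.

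IRF9 binds DNA within ISGF3, and its gene also rose with LPS. Irf9 rose by 2.73 in young and 2.6 in aged cells on the log2 scale, and with LPS stood at 66.3 to 78.3 CPM in young and 51.1 to 60.5 CPM in aged cultures, with no overlap (log2 -0.41 ± 0.09, adjusted p = 0.00154). Stat3, the main factor of interleukin-6 and interleukin-10 signals, rose by 1.61 ± 0.07 in young and 1.24 ± 0.07 in aged cells and was lower in aged cells with LPS (log2 -0.35 ± 0.07, adjusted p = 0.000442). The difference between its LPS responses was -0.37 ± 0.10 (adjusted p = 0.0239). Stat5a, Stat5b and Stat6 fell with LPS at both ages, with log2 changes of -0.81, -0.61 and -0.34 in young and -0.78, -0.41 and -0.26 in aged cells. Jak3 changed by -0.27 in young (adjusted p = 0.0499) and by -0.26 in aged cells (adjusted p = 0.0692, not called).

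Of the other chains of the same receptor class, 4 of 7 were tested. Il10ra, the ligand-binding chain of the interleukin-10 receptor, was lower in aged cells at rest (-0.91 ± 0.12, adjusted p = 3.28e-05) and with LPS (-1.06 ± 0.11, adjusted p = 6.35e-07), and rose with LPS (0.90 in young and 0.76 in aged cells). Il10rb, which lies between Ifnar2 and Ifnar1, was lower in aged cells at rest (log2 -0.36 ± 0.08, adjusted p = 0.00625) and with LPS (-0.27 ± 0.08, adjusted p = 0.0163), and rose with LPS (0.51 in young and 0.60 in aged cells). Ifnlr1, the receptor chain for lambda interferons, had at most 40 counts and fell with LPS in both ages (-2.57 and -2.29 on the log2 scale). Il20rb, with at most 31 counts, rose with LPS in young (1.02 ± 0.22, adjusted p = 0.000358) and in aged cells (0.53 ± 0.22, adjusted p = 0.0471).

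The negative regulators include genes that interferons themselves switch on. Of 19 tested, 10 rose and 5 fell with LPS in young cells, 11 rose and 5 fell in aged cells, and with LPS 9 were lower and 2 higher in aged cells. The shares of all genes were 31.2% and 33.5%, 27.5% and 26.9%, and 15.0% and 14.0% in the same order. Usp18, which binds IFNAR2 and dampens its signal, rose by 6.30 in young and 6.92 in aged cells and was lower in aged cells with LPS (log2 -1.0 ± 0.24, adjusted p = 0.00255). Socs1, an inhibitor of JAK kinases, rose by 5.10 and 3.36 and was lower (log2 -0.98 ± 0.22, adjusted p = 0.00196), and Socs3 rose by 2.87 and 2.06 and was lower (log2 -0.96 ± 0.20, adjusted p = 0.000923). Cish, another inhibitor of this family, had at most 47 counts and was lower in aged cells with LPS (-1.42 ± 0.35, adjusted p = 0.00424). Pias3 fell with LPS, and fell less in aged (-0.73) than in young cells (-1.28), a difference of 0.55 ± 0.16 (adjusted p = 0.0376). The rise with LPS was smaller in aged cells for the phosphatase gene Ptprc (-0.39 ± 0.08, adjusted p = 0.00409) and for Socs7 (-0.39 ± 0.10, adjusted p = 0.0275). At rest only Pias1 of the 19 was called with age (-0.23 ± 0.05, adjusted p = 0.00465).

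Of 19 tested genes on the route from TLR4 to Ifnb1, 5 were lower in aged cells at rest, and 10 were lower and 1 higher with LPS. Of all genes, 7.81% were lower at rest, and 15.0% were lower and 14.0% higher with LPS. Tlr4 itself fell with LPS (-1.03 in young and -0.78 in aged cells) and gave no call with age at rest or with LPS (adjusted p = 0.307 and 0.502). Ticam1, the adaptor on this route, rose by 1.93 and 1.66 and was lower in aged cells with LPS (log2 -0.50 ± 0.11, adjusted p = 0.00115). Irf3, the factor that adaptor activates, was not called with LPS at either age (-0.08 and -0.04) and was lower in aged cells at rest (log2 -0.22, adjusted p = 0.0371). Irf7, a factor that interferons induce, rose by 6.39 and 7.13 and was lower in aged cells at rest (-1.89 ± 0.56, adjusted p = 0.0308) and with LPS (-1.15 ± 0.21, adjusted p = 0.00023). The kinase gene Ikbke rose by 2.76 and 2.93 and was lower at rest (-0.45 ± 0.11, adjusted p = 0.00906), as was the coactivator gene Ep300 (-0.24 ± 0.05, adjusted p = 0.00544). Cd14, which hands LPS to TLR4, rose by 2.84 and 2.77 and was lower with LPS (-0.64 ± 0.19, adjusted p = 0.0166). The LPS response was smaller in aged cells for Tank (-0.38 ± 0.08, adjusted p = 0.00415) and for the kinase Tbk1 (-0.28 ± 0.07, adjusted p = 0.0136).

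Of 30 genes that ISGF3 is known to switch on, 28 passed the filter on low counts. Of these, 28 rose at each age, with median log2 fold changes of 6.36 in young and 6.77 in aged cells. With LPS, 28 were lower in aged cells, with a median of -1.30. Mx1, Mx2, Ifih1, Ifit3b and Zbp1 had at most 8 counts in any untreated library. They are among those that passed the filter only through LPS-treated libraries, so that they rose was largely fixed by the filter. Of all genes, 31.2% rose in young and 27.5% in aged cells, and 15.0% were lower in aged cells with LPS. At rest 11 of the 28 were called lower in aged cells, against 7.81% of all genes, with a median of -1.76, while Stat2 itself showed no call. That count was 7, with a median of -1.35, without young untreated culture 1. The LPS response was called smaller in aged cells for 2 genes of the list, Ifit2 (-1.30) and Oasl1 (-0.74), and larger for 0. Of all genes, 2.27% were called lower and 4.12% higher. The LPS response of the list differed by a median of 0.38. Without young untreated culture 1 this median was -0.04, so its direction rested on that culture. Without aged LPS-treated culture 3, 16 genes of the list were called lower at rest and 6 had a smaller response. In aged untreated cells 4 of the 28 (Ifih1, Ifit3b, Mx1 and Zbp1) were at 0 in every library, so their fitted changes there are no bound. With these 4 set at the floor of 3 counts over that group, the medians were -1.56 for age at rest, 6.48 for LPS in aged cells and 0.14 for the difference between the responses.

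Among the ISGF3 targets, Ifih1, a sensor of viral RNA, had 12 counts in all young and 0 in all aged untreated libraries, and 863 and 29 with LPS (log2 -4.98 ± 0.28, adjusted p = 8.72e-10). Rsad2 was lower in aged cells by -4.07 ± 0.73 at rest (adjusted p = 0.000948), and Cmpk2 by -3.76 ± 0.94 at rest and -1.89 ± 0.27 with LPS (adjusted p = 0.0115 and 1.69e-05). At rest, 1 young library held 634 of the 1079 young counts of Rsad2, and 1 held 95 of the 214 of Cmpk2. Mx1 was lower with LPS (-2.27 ± 0.34, adjusted p = 7.06e-05). Young cells gave the largest LPS responses of the list for Mx1 (8.22), Mx2 (7.76) and Cmpk2 (7.60). Over all young untreated libraries Mx1 had only 10 and Mx2 only 15 counts, so the size of their responses is uncertain.

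Of 16 tested GAS target genes, 15 rose and 1, Irf8, fell at each age, and 15 were lower in aged cells with LPS (median -1.31). Gbp5, with 16 counts over the young and 0 over the aged untreated libraries, is among those that passed the filter only through LPS-treated libraries. That such genes rose was largely fixed by the filter. Of all genes, 31.2% rose in young and 27.5% in aged cells, 15.0% were lower with age under LPS and 7.81% at rest. At rest 6 of the 16 were called lower, 2 without young untreated culture 1 and 10 without aged LPS-treated culture 3. Nos2, the inducible nitric oxide synthase, had 117 counts over the young, 49 of them in 1 library, and 1 over the aged untreated libraries (adjusted p = 0.0439). The guanylate-binding protein gene Gbp2 was lower at rest (-3.88 ± 1.10) and with LPS (-1.91 ± 0.22), Gbp5 with LPS (-2.25 ± 0.33), and the chemokine gene Cxcl10 at both (-2.83 ± 0.86 and -1.79 ± 0.35). In young cells Gbp5 (8.35), Cxcl10 (7.71) and Gbp2 (7.63) showed the largest LPS responses of the list. Of the 16, Irf1 alone was called with a smaller LPS response in aged cells (-0.85 ± 0.24, adjusted p = 0.0349), where 5 genes were without aged LPS-treated culture 3.

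In single libraries, the mean log2 CPM of the 28 ISGF3 target genes ran from 6.68 to 7.28 across the young LPS-treated cultures and from 5.00 to 6.28 across the aged ones. Aged culture 3, highest of its group for Stat2, was also highest for this mean, and aged culture 2 was lowest for both. At rest the mean was 2.14 in young culture 1, against 0.844 to 1.57 in the other 4 young and -0.09 to 0.467 in the aged cultures. Stat2 in that culture (11.7 CPM) lay within the range of the other untreated cultures.

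**Figure D4:**
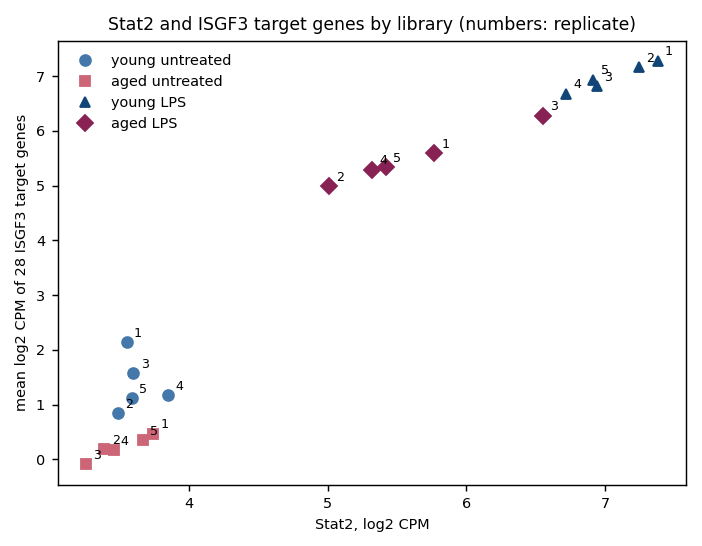
Each of the 20 libraries by its Stat2 level (x axis, log2 CPM) and the mean level of 28 ISGF3 target genes (y axis, mean log2 CPM), with the replicate number beside each point. LPS-treated libraries lie in the upper right, with aged culture 3 next to the young ones, and at rest young culture 1 stands highest on the y axis (2.14) with Stat2 like the rest.

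Likeness to other genes was measured as the root mean square difference between log2 CPM profiles, each centred on its own mean, over the 20 libraries. Among the genes nearest to Stat2, whose own profile spread by 1.5, was Parp12 (0.240). For Jak2 (own spread 0.607) they were Psmb10, Samhd1 and Parp11 (0.129 to 0.139), and for Tyk2 (0.861) Mtmr14, Vasp and Ogfr (0.125 to 0.147). Ifngr2 lay closest to Lyn, Rela and Rac2 (0.0843 to 0.0894) and Ifngr1 closest to Scarb1, Laptm5 and Tgfbr2 (0.0923 to 0.115). Jak1 lay closest to Vps26a, Tuba1c and Bicd2 (0.0531 to 0.0639), Ifnar1 to Map4k4, Etv6 and Efhd2 (0.0884 to 0.0931) and Ifnar2 to Laptm4a, Gpr108 and Chmp1b (0.112 to 0.124). Among the 8 genes themselves, the most alike pair was Ifnar1 and Jak1 (0.153), and the least alike was Ifngr1 and Stat2 (1.75). Both chains of the type I receptor differed by 0.198 and both chains of the interferon gamma receptor by 0.720.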

How the data were processed

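The 20 libraries were prepared from poly(A) RNA with a stranded kit. The authors aligned the reads with STAR 2.6.1d to GRCm38 and counted them per Ensembl gene with featureCounts 1.5.1, and the deposited table holds these raw counts without normalization. Versions are from the submitters' processing notes, and the settings for strand and for overlapping genes are not given in the sources used here. Of 55487 identifiers, 55227 were named through GENCODE M21 (GRCm38), and all 9 genes were found.

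Counts were filtered with filterByExpr, scaled by TMM and fitted in 1 model of 4 groups of 5 with edgeR 4.0.16 (quasi-likelihood F test, R 4.3.3). Benjamini-Hochberg adjustment ran over all 12799 genes, with a threshold of 0.05. All p-values are two-sided. The study's methods used DESeq2, which was run as an alternative here (version 1.42.0). CPM are TMM-scaled, FPKM divide them by the union of exons, and intervals and floors (3 counts) cover counting error only. The script was tested on simulated data.

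Replicate numbers are batch numbers in the labels and so pair the cultures. Deviations from the group means of same-numbered cultures correlated by 0.276 between both young groups, by 0.260 between both aged groups and by 0.0425 between both LPS-treated groups. Over the 40 pairs of replicates of a group, counts differed by more than sampling noise (chi-square divided by its degrees of freedom was at least 2.31). The alternatives were DESeq2, a block for batch, other scaling, other filters, fits of only the groups compared, and leaving out single replicates or cultures. Aged LPS-treated culture 3 was left out as an alternative chosen after seeing the data.

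The 9 genes and the gene lists were chosen with earlier results of these data known. Named from the other lists are up to 3 called genes with the largest change in each comparison, those whose LPS change in aged cells is set against 0 or 1 count left out there, with Irf9, Socs1, Socs3, Usp18, Ticam1 and Irf3 always. Other genes named, namely Tlr4, Irf8, Zbp1, Cd2, Stat5a, Stat5b, Stat6 and Jak3, were chosen after their values were seen. Results on 1 further gene of the pathway are not reported here.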

Additional observations from a re-analysis of the deposited data

Results flagged for a closer look

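In the comparison of LPS responses, Jak2 (-0.69 on the log2 scale, adjusted p = 0.0132) and Stat2 (-1.23, adjusted p = 0.0155) differed between ages by edgeR's test of the difference itself, both with a smaller response in aged cells and in 5 of 5 batches.

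Dixon's test was run on 34 groups of 5 cultures and picked out 3 values, where chance alone gives about 1 in 20 groups. Ifngr2 in young LPS-treated culture 4 was the lowest of its group at 219 CPM. Jak1 in young untreated culture 1 was the highest of its group at 185 CPM. Stat2 in young untreated culture 4 was the highest of its group at 14.4 CPM.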

How the results depend on the processing

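Over all alternatives, 570 of 592 fold changes of the 8 genes kept their direction and their side of the threshold, 20 lost their call and 2 changed sign. Both sign changes came with scaling by library size alone and in uncalled values: Ifnar2 with LPS in aged cells (-0.0299) and the difference between the LPS responses of Ifngr2 (0.0010). That scaling moved the median fold change of all genes by -0.22 in young and -0.16 in aged cells with LPS. It gave 2407 genes higher with LPS in young cells (3988 with TMM), 2172 higher and 5476 lower in aged cells (3523 and 3445), 3167 higher with age under LPS (1794), and 881 called higher for the difference between the LPS responses (527). A higher difference is a larger rise or a smaller fall in aged cells. The share of calls that were higher moved from 48.2 to 27.3%, 50.6 to 28.4%, 48.3 to 70.1% and 64.4 to 81.3% in those 4 comparisons, and from 32.2 to 42.2% for age at rest.

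A replicate block for batch changed no call of the 8 genes. With the block, genes higher with age at rest numbered 768 in edgeR and 818 in DESeq2 (475 without it). Genes called lower for the difference between the LPS responses numbered 619 in DESeq2 (291 in edgeR without it), where DESeq2 with no block gave 450. The share of higher calls for the difference between responses was 56.8% in DESeq2 with no block and 54.2% with it. In edgeR it was 64.4% with no block and 62.3% with it.

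Leaving out replicates or single cultures, 3 to 4 of the 8 genes were lower with age at rest, 5 to 7 were lower with age under LPS, and 6 to 7 rose with LPS in young cells, while the number of the 8 genes with a smaller LPS response in aged cells ran from 0 to 2 and was 0 without replicates 1, 2 or 5. Over the same settings, genes higher and lower with age at rest numbered 120 to 514 and 428 to 1132, and genes higher and lower with age under LPS 960 to 1939 and 1196 to 1998. Those called higher and lower for the difference between the LPS responses numbered 148 to 650 and 41 to 419. The fit without replicate 2 gave the lowest of each of these counts, and fewer samples enter these fits. With the longest transcript as the length, Ifnar2/Ifnar1 was 1.08, 1.10, 0.961 and 0.939 and Ifngr2/Ifngr1 was 2.50, 2.69, 7.32 and 6.60 in young untreated, aged untreated, young LPS-treated and aged LPS-treated cells. Where a cause is not given above, the cause was not tested.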
